A study of Mus musculus with 12 samples.

Results

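The genes described here are 51 genes of p53 signalling, the cell cycle and apoptosis, chosen by symbol from a list of the pathway's regulators, kinases and targets, out of 27308 gene symbols on the array. Of these, 47 could be tested, out of 18266 genes tested in all, because at least 1 of their probes stood well above background throughout 1 group's 3 arrays or more. RNA came from the whole hypothalamus of male mice on a C57BL/6 background. The mice of all groups were 6 to 7 weeks old when swimming training started in the trained animals. Training then ran for several weeks before tissue was taken. Each array was taken as 1 mouse. The 4 groups of 3 mice were untrained wild-type littermates (WT), untrained homozygous Asmt knockouts (KO), wild-types given swimming exercise (exercised WT) and knockouts given swimming exercise (KE). Asmt is the enzyme of the last step of melatonin synthesis. The knockout line carries a 20 bp deletion made with Cas9 in founder mice, which were crossed back to wild-type littermates for 3 generations, and the C57BL/6 strain that all groups share is itself known for low melatonin synthesis. The single Asmt probe was not well above background on any of the 12 arrays, WT included, so it could not check the genotype labels.

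p53, encoded by Trp53, is a transcription factor that damage kinases such as Atm, Atr, Chek1 and Chek2 activate and that Mdm2 and Mdm4 hold in check. Its best known target, Cdkn1a (p21), stops cyclin-dependent kinases and so halts the cell cycle, while other targets repair DNA, act on mitochondria in apoptosis or signal to neighbouring cells. Most neurons of the adult hypothalamus no longer divide, and in such cells these genes are better known for stress responses than for proliferation. In bulk tissue, fewer cells of a type and less RNA per cell cannot be told apart.

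The 12 arrays lay on 2 slides, and the slides did not hold the groups equally. All WT arrays and KO replicates 1 and 2 were on slide 1, and KO replicate 3 and all exercised WT and KE arrays were on slide 2. Across genes, KO replicate 3 correlated more closely with the exercised WT mean (r = 0.9964) than with the WT mean (r = 0.9895), whereas KO replicates 1 and 2 correlated more closely with the WT mean (r = 0.9961 and 0.9958) than with the exercised WT mean (r = 0.9903 and 0.9911). KO replicate 3 therefore stood apart from its group, and values with the slide as a block, or without that array, are given beside the main ones. With the block, KE against KO is the difference from KO replicate 3 alone, the sole KO array of slide 2. In the comparisons with WT of exercised groups, the block takes the slide difference from KO replicate 3 against KO replicates 1 and 2. Blocked values and counts of these comparisons thus rest on 1 array, which is assumed to vary like the others, and do not separate slide from that mouse. In KO against WT and in the interaction the block gives the difference without KO replicate 3. Within slide 2, only KE against exercised WT is a comparison of whole groups. All 14 hypothalamus marker genes were tested, and of the anterior pituitary markers Gh, Prl, Cga and Pou1f1 were not well above background in all arrays of any group. The other pituitary markers, Tshb and Lhb, were tested. Their summed signal was 174 to 178 in WT, 188 to 228 in KO, 210 to 235 in exercised WT and 191 to 219 in KE. Its part in the values below was not tested.

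Cdkn1a and Chek1 were the members that passed the study's screening criterion, a 2-fold difference with an unadjusted p of at most 0.05, in any comparison. Chek1, a kinase that halts the cycle when DNA replication stalls, had a measured signal 2.13-fold higher in KO than in WT, but only 1 of 3 WT arrays was well above background, and it was tested only because KO and exercised WT, the groups where it was high, were. Cdkn1a was 2.07-fold lower in KE than in KO. For both genes the difference between trained and untrained mice was lower in knockouts than in wild-types. None of the 47 members reached an adjusted p under 0.05 in any of the 6 comparisons. The study picked Chek1, Cdkn1a, Mdm4 and Pidd1 from these same arrays for follow-up by qRT-PCR, so their place here is no independent evidence. The study reports that qRT-PCR, a separate measure of RNA, did not verify any of them.

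The promoter windows of these members are shown because they lie at their annotated gene starts, and because p53 is known to act on Cdkn1a through its promoter. Which start gave the measured signal was not tested. Each window is 300 bases long, most of it upstream of a RefSeq gene start on GRCm38.p6, written 5′ to 3′ on the gene's strand, with motif matches in capitals. The Cdkn1a windows lie on the plus strand at chr17:29090729-29091028, where the capitals mark 2 matches to the p53 half-site, and at chr17:29093519-29093818, where they mark 2 GC boxes. The Chek1 window lies on the minus strand at chr9:36726609-36726908 and held none of the 4 motifs searched.
Cdkn1a window 1: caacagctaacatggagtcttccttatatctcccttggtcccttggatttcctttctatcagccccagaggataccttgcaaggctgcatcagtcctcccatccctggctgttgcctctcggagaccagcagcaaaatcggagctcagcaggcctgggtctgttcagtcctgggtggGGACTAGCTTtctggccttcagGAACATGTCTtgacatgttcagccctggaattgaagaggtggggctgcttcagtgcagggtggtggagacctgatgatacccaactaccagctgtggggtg
Cdkn1a window 2: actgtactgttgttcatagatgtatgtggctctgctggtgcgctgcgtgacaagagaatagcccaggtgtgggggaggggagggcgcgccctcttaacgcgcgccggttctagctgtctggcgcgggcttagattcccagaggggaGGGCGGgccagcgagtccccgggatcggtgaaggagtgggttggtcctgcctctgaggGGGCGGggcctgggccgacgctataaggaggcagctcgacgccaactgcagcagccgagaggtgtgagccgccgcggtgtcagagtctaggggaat
Chek1: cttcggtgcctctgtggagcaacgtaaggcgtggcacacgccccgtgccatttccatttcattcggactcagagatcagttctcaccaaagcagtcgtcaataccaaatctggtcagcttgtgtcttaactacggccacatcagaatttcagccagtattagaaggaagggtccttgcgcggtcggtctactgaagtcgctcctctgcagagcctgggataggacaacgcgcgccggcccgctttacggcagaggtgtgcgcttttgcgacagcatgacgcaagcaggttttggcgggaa
The motifs were searched on both strands as the p53 half-site, the CCAAT box (CCAAT), the GC box (GGGCGG) and the TATA box (TATAAA). Of the 51 members, 43 had a window, with 59 windows in all. The p53 half-site was in 13 of them (22%), against 8.36% of all 32851 windows. The 12 members holding it were Bax, Ccng1, Cdkn1a, Ei24, Gadd45a, Gtse1, Mdm2, Ppm1d, Rchy1, Sesn1, Shisa5 and Trp53. The GC box was in 35 member windows (59.3%, against 35.7% of all), the CCAAT box in 26 (44.1%, against 37.4%) and the TATA box in 5 (8.47%, against 13.6%). A match of letters is not a binding site, and a window without a match says only that these letters were not there.

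The members too dim to test were Chek2, Cdk1, Ccnb1 and Gtse1, of which Cdk1, Ccnb1 and Gtse1 are best known from dividing cells. The probe of Chek2, a damage kinase, was well above background on 4 of 12 arrays. The probe of Cdk1, the kinase that drives entry into mitosis, was above background on 1 array. Ccnb1, the cyclin partner of Cdk1, had 4 probes, which were above background on 0, 4, 0 and 0 arrays. The probe of Gtse1, a regulator of p53 in late cell cycle, was above background on 0 arrays. These members have no level here and are left out of the counts that follow, except where no detection filter was set. Of the 106 probes of all members, 83 were tested.

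Chek1 was itself close to background. Its tested probe, at chr9:36517425-36517484 of the mm9 build, was well above background on 1 WT, 3 KO, 3 exercised WT and 2 KE arrays. Normalized log2 signal of Chek1 was 4.15, 3.59 and 3.84 in WT and 4.99, 5.27 and 4.59 in KO. It was 4.58, 4.27 and 4.70 in exercised WT and 4.47, 3.83 and 4.37 in KE. All KO and all exercised WT arrays were above all WT arrays, and KE overlapped with WT and exercised WT. A second Chek1 probe, at chr9:36531507-36531566, was above background on 1 WT, 2 KO, 2 exercised WT and 0 KE arrays and was not tested. Its values overlapped between WT (3.67, 4.66 and 3.82) and KO (4.33, 4.46 and 4.50), so the second probe did not show the separation of the first.

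Cdkn1a was measured by 1 probe, at chr17:29237377-29237436 of mm9, while its other 2 probes were above background on 0 arrays. Normalized log2 signal of Cdkn1a was 9.08, 9.18 and 8.97 in WT and 9.39, 10.24 and 9.23 in KO. It was 9.34, 9.38 and 8.83 in exercised WT and 8.76, 8.68 and 8.27 in KE. The 3 KE arrays were the lowest of all 12, and KO replicate 2 was the highest by a wide margin. That KO array also had the highest summed signal of choroid plexus markers (8010, against 5550 to 7140 on the other 11 arrays), of ependyma (15800, against 11300 to 14900), of blood (99800, against 43400 to 82400) and of proliferation markers (6400, against 5480 to 6170), and the lowest of endothelial markers (6010, against 6140 to 7750). The part of these markers in the Cdkn1a value was not tested. The summed signal of neuronal immediate-early genes, which mark recent activity, was 7750 to 8110 in KE and 8430 to 12700 in KO without overlap, and its part was not tested either.

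**Figure D1:**
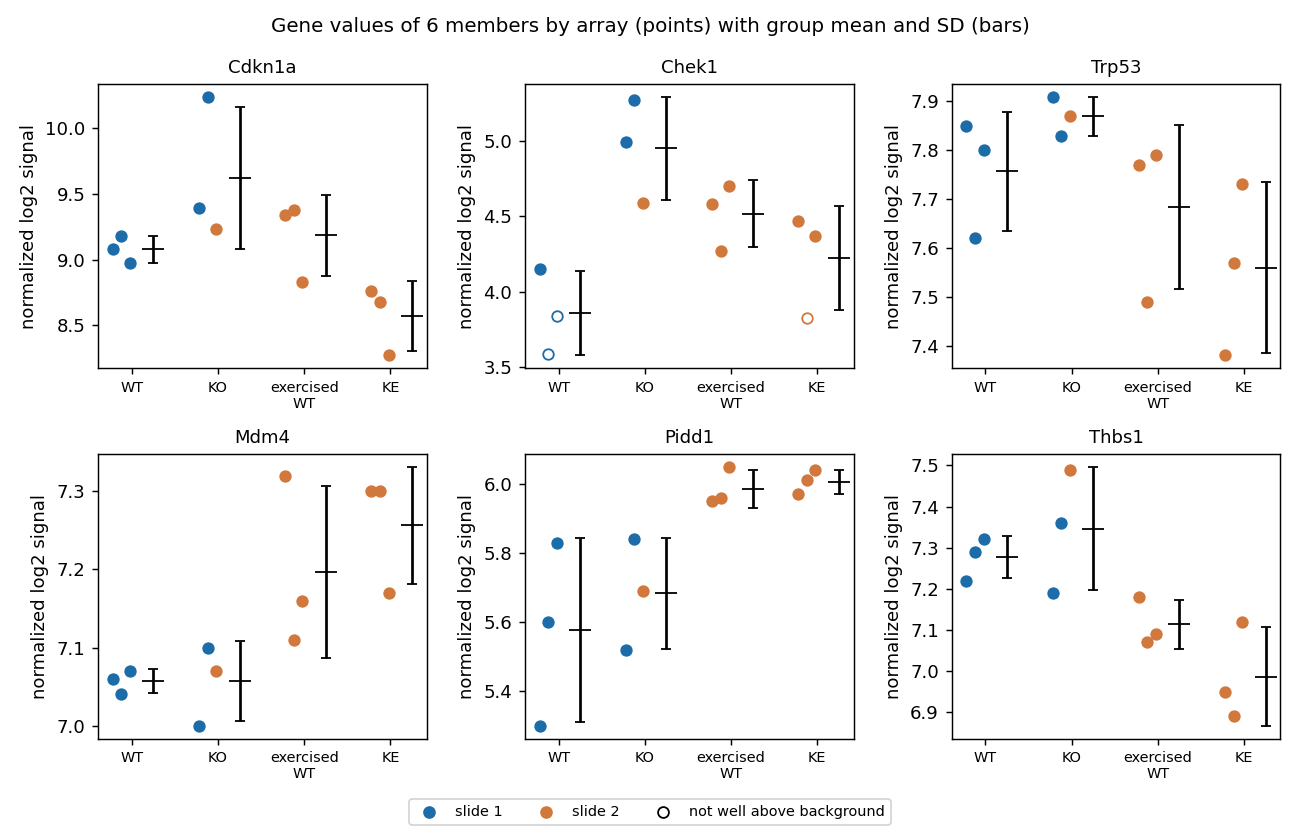
Normalized log2 signal (vertical axis) of Cdkn1a, Chek1, Trp53, Mdm4, Pidd1 and Thbs1 on each array in WT, KO, exercised WT and KE (horizontal axis), coloured by slide, with open points where the gene was not well above background and bars for the group mean and SD (n = 3). Cdkn1a was lowest on the 3 KE arrays (8.27 to 8.76), and Chek1 lay at 3.59 to 4.15 in WT and at 4.59 to 5.27 in KO.

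In sedentary mice, the comparison of KO with WT asks what loss of Asmt did to these genes, and few members differed. Over all genes, 0.175% passed the screening criterion in KO against WT and 0% had an adjusted p under 0.05, while 1 of the 47 members, Chek1, passed the criterion and 0 had such an adjusted p. The Chek1 difference was 1.09 (SE 0.22) on the log2 scale, with an adjusted p of 0.839. With the slide as a block, which here equals leaving out KO replicate 3, it was 1.27 (SE 0.23), with an adjusted p of 0.462. With normexp background correction it was 0.36, with both probes and no detection filter 0.74, and it was 0.96 without WT replicate 2 and 0.93 without KO replicate 2. In each of these it no longer passed the criterion. Of the members, 2 were higher and 0 lower at an unadjusted p under 0.05, beside 2.68% and 2.79% of all genes. The second of these was Steap3, a metalloreductase and p53 target, at 0.17. Cdkn1a was higher in KO by 0.54 (SE 0.25, 95% confidence interval -0.02 to 1.11), which did not pass the test, and by 0.23 without KO replicate 2. The block gave 3 members higher and 0 lower, beside 3.36% and 2.5% of all genes. They were Chek1, Cdkn1a at 0.74 and Igfbp3 at 0.26, while Steap3 at 0.13 no longer passed. The third highest member was Trp73, the p53 relative p73, at 0.27. The lowest were Apaf1, the scaffold of the apoptosome, at -0.16, Gadd45b, a stress-response gene, at -0.15, and Ddb2, a sensor of ultraviolet damage to DNA, at -0.13. Trp53 itself was at 0.11 (SE 0.11). The median difference over the members was 0.01, beside -0.01 over all genes. The summed endothelial marker signal was 7520 to 7750 in WT and 6010 to 6870 in KO, with 2 of 6 of its genes lower at an unadjusted p under 0.05, and its part in these values was not tested.

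Swimming in knockout mice, KE against KO, gave the most members at an unadjusted p under 0.05. The background there was 0.651% of genes past the criterion and 0% at an adjusted p under 0.05, and 1 of the 47 members, Cdkn1a, passed the criterion and 0 the adjusted p. Cdkn1a was lower in KE by 1.05 on the log2 scale (SE 0.25, adjusted p 0.121). Against KO replicate 3 alone, as the block gives it, the difference was -0.66 (adjusted p 0.644), without KO replicate 2 it was -0.74, and without KO replicate 3 it was -1.24 (adjusted p 0.0113). It was -0.98 with normexp and -0.90 without KE replicate 3, both short of 2-fold, and -0.58 with all 3 probes and no detection filter. At an unadjusted p under 0.05, 4 members were higher, beside 6.95% of all genes, and 12 were lower, beside 13.5% of all genes. The members' shares were 8.51% and 25.5%. With the block, and so with 1 KO array, those counts became 1 higher (Mdm2) and 2 lower (Thbs1 and Steap3), beside 3.95% and 4.28% of all genes. The median over members was -0.09, beside -0.04 over all genes, and -0.03 with the block.

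**Figure D2:**
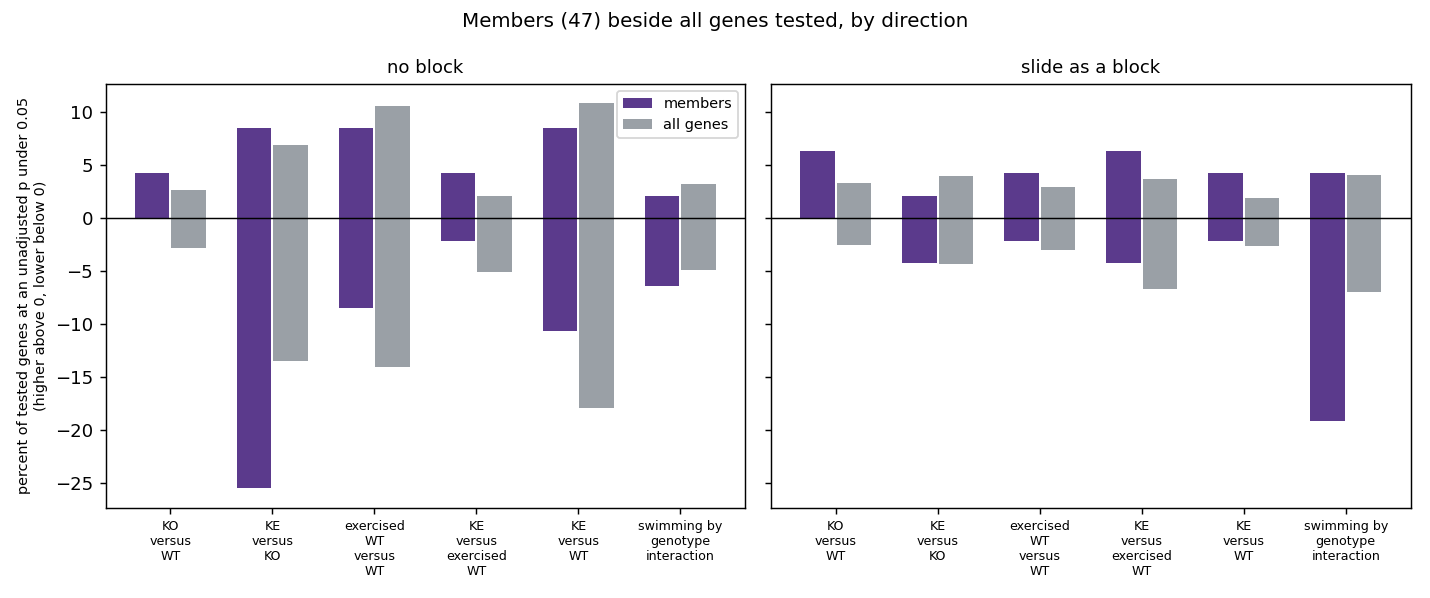
Percent of genes (vertical axis) higher or lower at an unadjusted p under 0.05 in each comparison (horizontal axis), for the 47 tested members and all 18266 tested genes, without a block and with the slide as a block. In the lower genes of KE against KO the share was 25.5% of members against 13.5% of all genes, and with the block, which leaves KO replicate 3 as the sole KO array in that comparison, it was 4.26% against 4.28%.

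By role, the cell cycle arrest and repair targets held 4 of those 12 lower members among their 10 tested (40%, beside 13.5% of all genes). These were Cdkn1a, Gadd45g at -0.39, Sfn, the 14-3-3 sigma protein that holds cells before mitosis, at -0.28, and the atypical cyclin Ccng2 at -0.23. Gadd45g, which binds growth-arrest kinases, was the third lowest member, with 13.28, 13.29 and 12.77 in KO and 12.64, 12.79 and 12.76 in KE. Only KO replicates 1 and 2, on slide 1, were above KE, and with the block the Gadd45g difference was -0.04. The block also brought Sfn to -0.04 and Ccng2 to -0.06.

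Among the 7 tested regulators of p53, Trp53 and Siah1a, a ubiquitin ligase, were lower in KE than in KO and Mdm4 was higher. Trp53 signal was 7.91, 7.83 and 7.87 in KO and 7.38, 7.57 and 7.73 in KE, so every KE array was below every KO array. The difference was -0.31 (SE 0.11, adjusted p 0.169), and it was also -0.31 with the slide as a block. Siah1a was at -0.32, and at -0.10 with the block. Mdm4 signal was 7.00, 7.10 and 7.07 in KO and 7.30, 7.30 and 7.17 in KE, a difference of 0.20 (SE 0.06, adjusted p 0.152) and of 0.19 with the block. The Mdm4 difference was 0.09 with normexp and 0.02 over the probes detected on all 12 arrays. Mdm2, the ubiquitin ligase for p53, was at 0.15, and at 0.30 against KO replicate 3 alone.

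Among the 3 tested damage kinases, Chek1 was lower in KE than in KO by 0.73 (SE 0.22, adjusted p 0.15) and Atr higher by 0.33 (adjusted p 0.149). Without KO replicate 3 the Chek1 difference was -0.91 (adjusted p 0.0227), and with the block it was -0.37. Atr, the kinase that signals stalled replication to Chek1, was 6.48, 6.45 and 6.50 in KO and 6.84, 6.91 and 6.65 in KE, without overlap, and its difference with the block was 0.30. Atm, which responds to broken DNA, was at 0.01.

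Of the 6 tested cyclins and cyclin-dependent kinases, Cdk4 was higher in KE at 0.15 and Ccnd2, its cyclin partner, lower at -0.24. Of the 14 tested apoptosis members, Fas, the death receptor, was at -0.33 and Shisa5, an apoptosis gene of the endoplasmic reticulum, at -0.15, while Pidd1 was at 0.33. The Fas value averages 2 tested probes annotated to different chromosomes, at chr19:34402164-34402223 and at chr4:40555124-40555183. These Fas probes were at -0.50 and -0.16 here, at 0.43 and -0.03 in KO against WT and at -0.57 and -0.12 in the interaction. With the block Cdk4 was at 0.02, Ccnd2 at -0.17, Fas at -0.21 and Shisa5 at -0.04. Of the 7 targets of growth, metabolism and secretion, Igfbp3, which binds insulin-like growth factors, was at -0.32 and Thbs1, a secreted inhibitor of new vessels, at -0.36. Thbs1 signal was 7.19, 7.36 and 7.49 in KO and 6.95, 6.89 and 7.12 in KE, a difference of -0.36 (SE 0.08, adjusted p 0.121), and against KO replicate 3 alone, the highest KO array, it was -0.50.

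**Figure D3:**
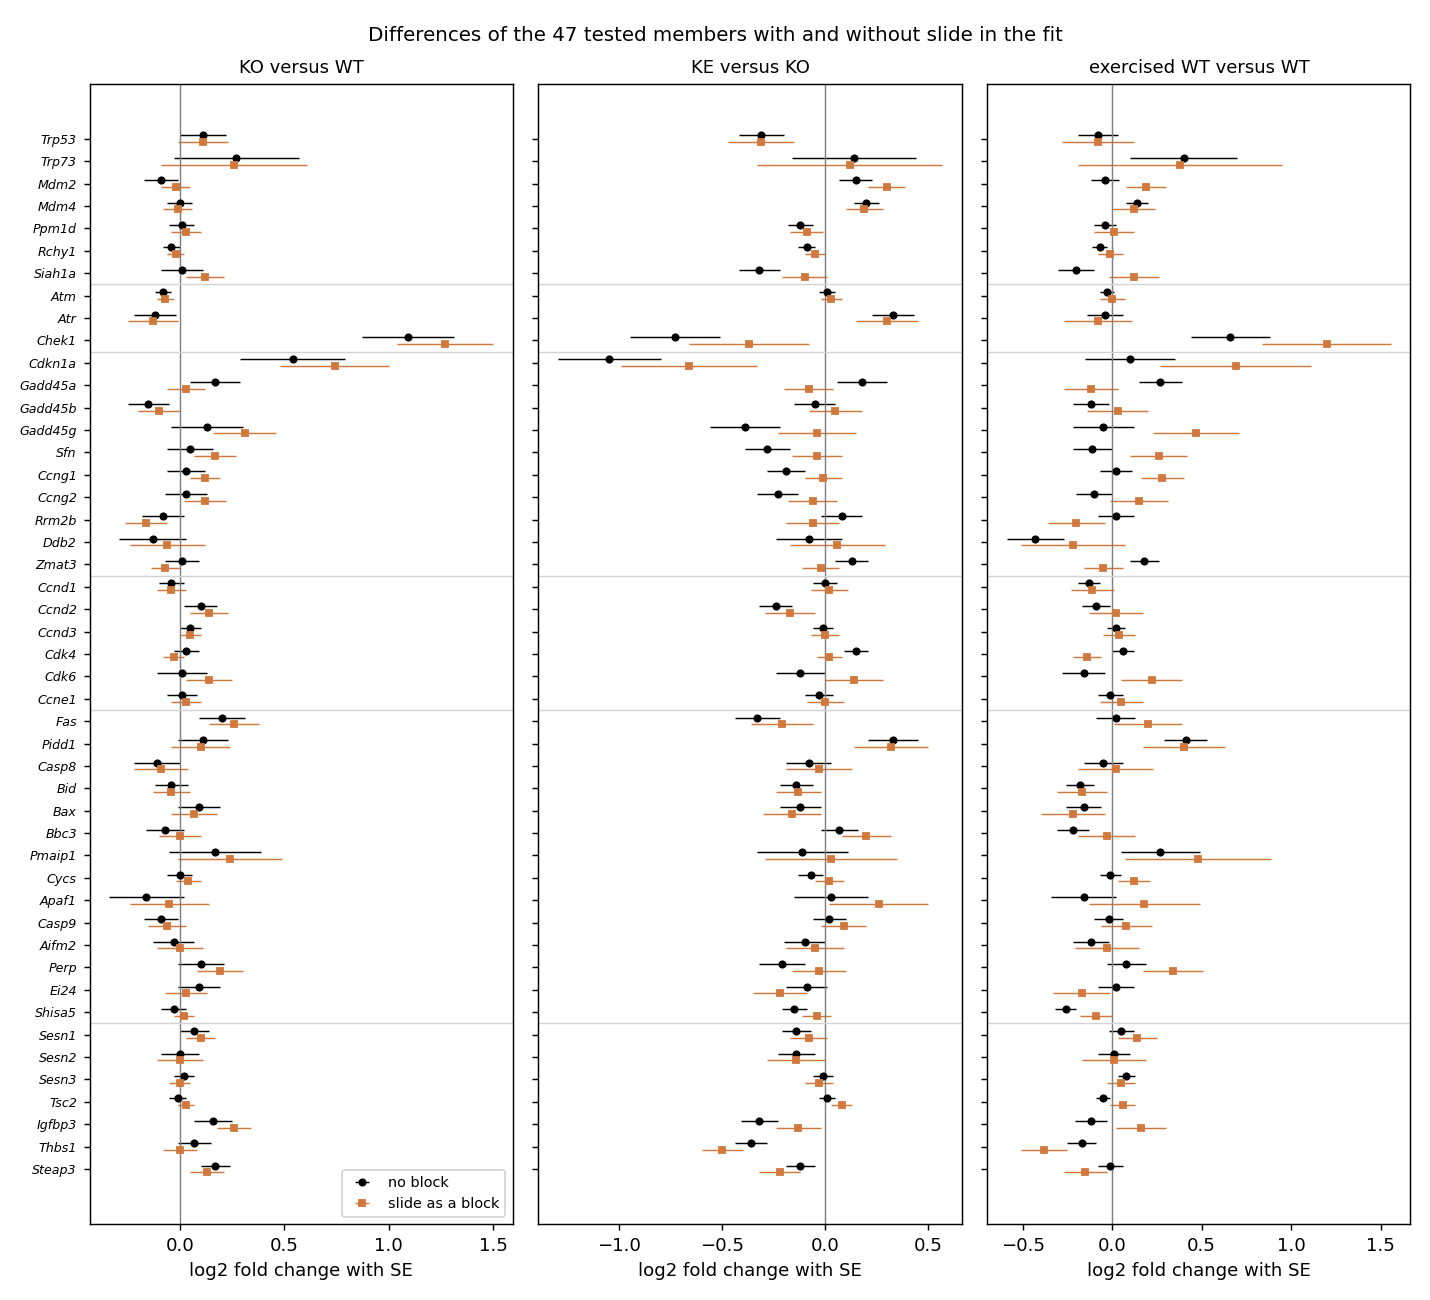
Log2 difference with its standard error (horizontal axis) of each tested member (vertical axis) in KO against WT, KE against KO and exercised WT against WT, without a block and with the slide as a block. Cdkn1a moved from -1.05 to -0.66 in KE against KO and Gadd45g from -0.39 to -0.04, while Thbs1 moved from -0.36 to -0.50.

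Leaving out KO replicate 3 raised the number of members at an adjusted p under 0.05 in KE against KO, exercised WT against WT and KE against WT, and left it at 0 in KO against WT and in the interaction. Without it, 13 members had an adjusted p under 0.05 in KE against KO, beside 21.5% of all genes. Higher in KE were Gadd45a at 0.32 and Cdk4 at 0.21. Lower, besides Cdkn1a and Chek1, were Gadd45g, Igfbp3, Siah1a, Sfn, Fas, Ccng2, Thbs1, Ccng1 and Shisa5, between -0.56 and -0.21. Every KO array left in that comparison was on slide 1 and every KE array on slide 2, so slide and swimming cannot be told apart in it.

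In wild-type mice, exercised WT against WT, members higher and lower were equal in number. Every WT array was on slide 1 and every exercised WT array on slide 2. Of all genes, 1.22% passed the criterion and 0% the adjusted p, and of the members 0 passed either. At an unadjusted p under 0.05, 4 members were higher and 4 lower, beside 10.6% and 14% of all genes. The slide block gave 2 higher and 1 lower, beside 2.98% and 3.01%. The summed endothelial signal was 6330 to 6880 in exercised WT and 7520 to 7750 in WT, and that of oligodendrocyte precursor markers 25400 to 27500 and 22400 to 24500, and their part was not tested. The 4 higher were Chek1 at 0.66 (SE 0.22, adjusted p 0.13), Pidd1 at 0.41 (adjusted p 0.111), Gadd45a at 0.27 and Zmat3, a p53 target that binds RNA, at 0.18. The 4 lower were Ddb2 at -0.43, Shisa5 at -0.26, Bbc3 (PUMA), which sets off mitochondrial apoptosis, at -0.22, and Bid, which links death receptors to mitochondria, at -0.18. Trp73 was the third highest at 0.40, with an overlap of its groups. Without KO replicate 3, which changes only the estimate of spread here, Shisa5 had an adjusted p of 0.0115, beside 14.5% of all genes under that threshold. Shisa5 signal was 11.14, 11.09 and 11.05 in WT and 10.89, 10.85 and 10.77 in exercised WT, without overlap, and its difference with the slide as a block was -0.09. With that block, whose slide term comes from KO replicate 3 against the other KO arrays, Chek1 was at 1.2 (SE 0.36, adjusted p 0.736) and was the 1 member past the criterion, beside 0.651% of all genes, and Cdkn1a went from 0.10 to 0.69. The block turned Gadd45a to -0.12 and Zmat3 to -0.05 and left Pidd1 at 0.40, but through opposite shifts of its probes. The Pidd1 probe at chr7:148624024-148624083 went from 0.88 to 0.01. The probe at chr7:148624416-148624475, above background on 2 of 3 WT arrays, went from 0.45 to 1.18. Pidd1 was at 0.15 with normexp and at -0.10 by its brightest probe.

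The size of the Ddb2 difference in exercised WT turned on 1 array. Ddb2 was 8.67, 9.37 and 9.30 in exercised WT and 9.66, 9.49 and 9.49 in WT. On exercised WT replicate 1, the probe at chr2:91052013-91052072 was at 8.01, while the probe at chr2:91052457-91052640 was at 9.33, close to its value on the other exercised WT arrays (9.34 and 9.29). Without that array the gene was at -0.21, and the second probe alone was at -0.20 with all arrays.

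After swimming, KE against exercised WT compared genotypes on slide 2 alone, and members differed little. Past the criterion were 0.192% of all genes and 0 members, and at an adjusted p under 0.05 0% and 0. The members at an unadjusted p under 0.05 were 2 higher, beside 2.11% of all genes, and 1 lower, beside 5.03%. With the slide as a block, which moves only the estimate of spread here, 3 were higher, with Cdk4 added, and 2 lower, with Ccng1 added, beside 3.7% and 6.72%. Summed striatal marker signal was 16600 to 17200 in KE and 18300 to 22900 in exercised WT, and that of neuronal immediate-early genes 7750 to 8110 and 8830 to 11200, and their part was not tested. The lower was Cdkn1a, at -0.61 (SE 0.25, adjusted p 0.685), with every KE array (8.27 to 8.76) below every exercised WT array (8.83 to 9.38). The higher were Atr at 0.24 (adjusted p 0.685) and Bbc3 at 0.22. Ddb2 was also at 0.22, and its value rests on exercised WT replicate 1, since it was at -0.02 by its brightest probe. Chek1 was at -0.29 (95% confidence interval -0.79 to 0.20) and Pmaip1 (Noxa), an activator of mitochondrial apoptosis, at -0.21. The members' median was -0.04, beside -0.01 over all genes.

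KE against WT sets the trained knockouts beside untrained wild-types and differs in genotype, training and slide together. Of all genes 1.64% passed the criterion and 0.00547% the adjusted p, and of the members 0 passed either as gene values. At an unadjusted p under 0.05, 4 members were higher, beside 10.9% of all genes, and 5 lower, beside 17.9%. With the block 2 were higher (Mdm2 and Chek1) and 1 lower (Thbs1), beside 1.94% and 2.57%. The higher were Pidd1 at 0.43 (adjusted p 0.0747), Gadd45a at 0.35, Mdm4 at 0.20 (adjusted p 0.0872) and Cdk4 at 0.18. The lower were Siah1a at -0.31, Thbs1 at -0.29, Shisa5 at -0.19, Bid at -0.18 and the ubiquitin ligase Rchy1 at -0.12. Trp73 at 0.41, Chek1 at 0.36 and Cdkn1a at -0.51 were among the extremes without passing, and Cdkn1a was at 0.08 with the slide as a block. That block also turned Gadd45a to -0.05, Cdk4 to -0.02 and Siah1a to 0.02, and left Pidd1 at 0.42, Mdm4 at 0.18 and Thbs1 at -0.50. Mdm4 was at 0.08 with normexp and at -0.00 over the probes detected on all 12 arrays. Pidd1 was at 0.21 with normexp, at 0.05 by its brightest probe and at 0.59 over the probes detected on all 12 arrays. Thbs1 was at 0.15 with no detection filter, which averages in a probe that was above background on 0 arrays. Without KO replicate 3, the members with an adjusted p under 0.05 were Cdk4, Gadd45a, Pidd1, Rchy1, Shisa5, Siah1a and Thbs1, 7 in all, beside 19.9% of all genes. The comparisons share arrays (KO against WT and KE against KO share KO, for example), so their values are not independent of each other.

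The swimming by genotype interaction asks whether the difference between trained and untrained mice was the same in knockouts and wild-types. Over all genes 0.515% passed the criterion and 0% the adjusted p, while 2 of the 47 members passed the criterion, Chek1 and Cdkn1a, and 0 the adjusted p. For Chek1 the swimming difference was 0.66 in wild-types and -0.73 in knockouts, an interaction of -1.38 (SE 0.32, adjusted p 0.445). For Cdkn1a it was 0.10 in wild-types and -1.05 in knockouts, an interaction of -1.15 (SE 0.36, adjusted p 0.486). With the slide as a block these were -1.56 and -1.35, and without KO replicate 2 the Cdkn1a interaction was -0.84, short of the criterion. With normexp the Chek1 interaction was -0.41, and with no detection filter the interactions were -1.0 for Chek1 and -0.53 for Cdkn1a, all without passing. At an unadjusted p under 0.05, 1 member was higher, Atr at 0.36, beside 3.21% of all genes, and 3 were lower, beside 4.85%, of which the third was Fas at -0.35. Ddb2 at 0.35, Bbc3 at 0.29 and Pmaip1 at -0.38 were the other extremes. With the block 2 members were higher, Atr and Cdk4, beside 4.09% of all genes, and 9 lower (19.1% of members), beside 6.99% of all genes, which besides Chek1, Cdkn1a and Fas were Gadd45g, Perp, Igfbp3, Ccng1, Sfn and Sesn1, between -0.51 and -0.22.

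**Figure D4:**
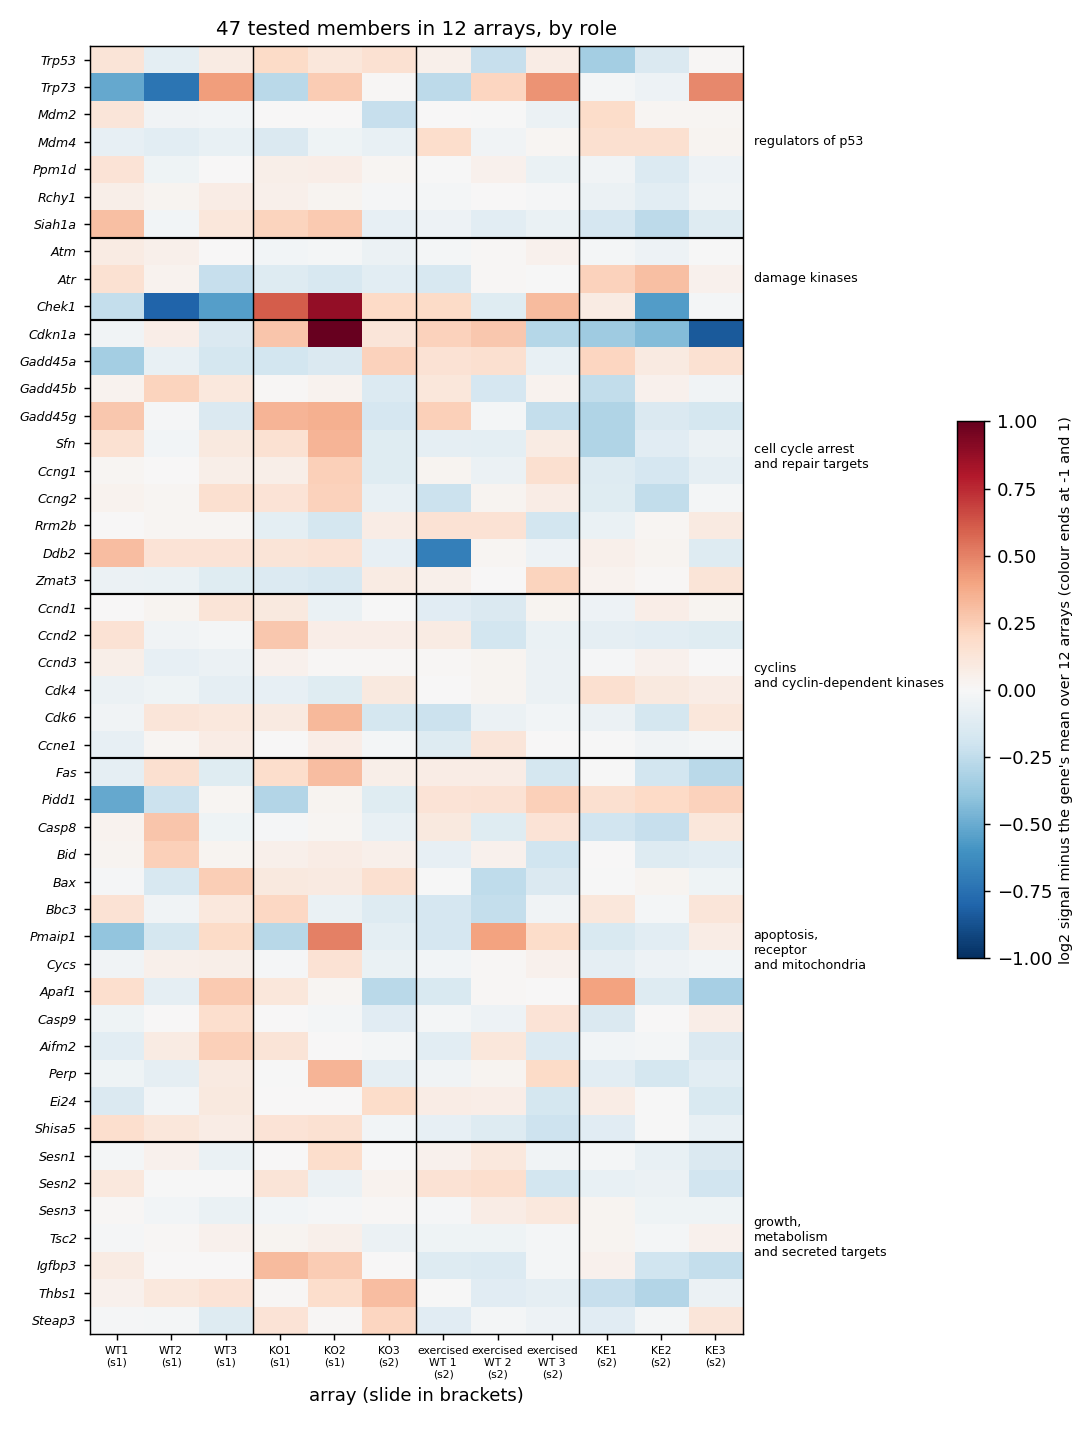
Normalized log2 signal of the 47 tested members (rows, by role) on the 12 arrays (columns, by group), centred on each gene's mean over the arrays, with the colour scale ending at 1 above and below. Chek1 and Cdkn1a had the widest group differences, and the column of KO replicate 3 differed from those of KO replicates 1 and 2 in Gadd45g (12.77 against 13.28 and 13.29).

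The probes of several members, among them Pidd1, Atr, Mdm4, Mdm2 and Cdk4, differed in direction or size within a comparison, so each such gene's mean is a mean of unlike values. Pidd1, a death-domain protein that p53 induces, had 3 probes. In KE against KO its probe at chr7:148624024-148624083 was higher by 1.03, while its probe at chr7:148627651-148627710 was at -0.22. With the slide as a block these were 0.45 and -0.15. Atr had 7 tested probes out of 8, and in exercised WT against WT the probe at chr9:95806713-95806771 was at 0.70 while the probe at chr9:95819436-95819495 was at -0.45. The block turned both, to -0.50 and 0.13. Mdm4, the p53 inhibitor related to Mdm2, had 6 probes. Its probe at chr1:134914278-134914337 was above background on 1 WT, 2 KO, 3 exercised WT and 3 KE arrays, and was higher by 1.12 (SE 0.23) in KE than in KO and by 1.0 in exercised WT than in WT. With the slide as a block those differences were 0.60 and 0.22. Without a block the mean over all 6 Mdm4 probes, this one included, was at 0.20 and 0.14. Over the probes detected on all 12 arrays, which leaves this one out, the mean was at 0.02 and -0.03. The brighter Mdm2 probe (12.82 in WT) was at -0.10 in KE against KO and the dimmer one (6.9) at 0.39. With the block these were -0.06 and 0.65, and in KE against WT -0.02 and 0.58. Cdk4 probes ran from -0.12 to 0.51 in KE against KO and from -0.12 to 0.62 in KE against WT.

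**Figure D5:**
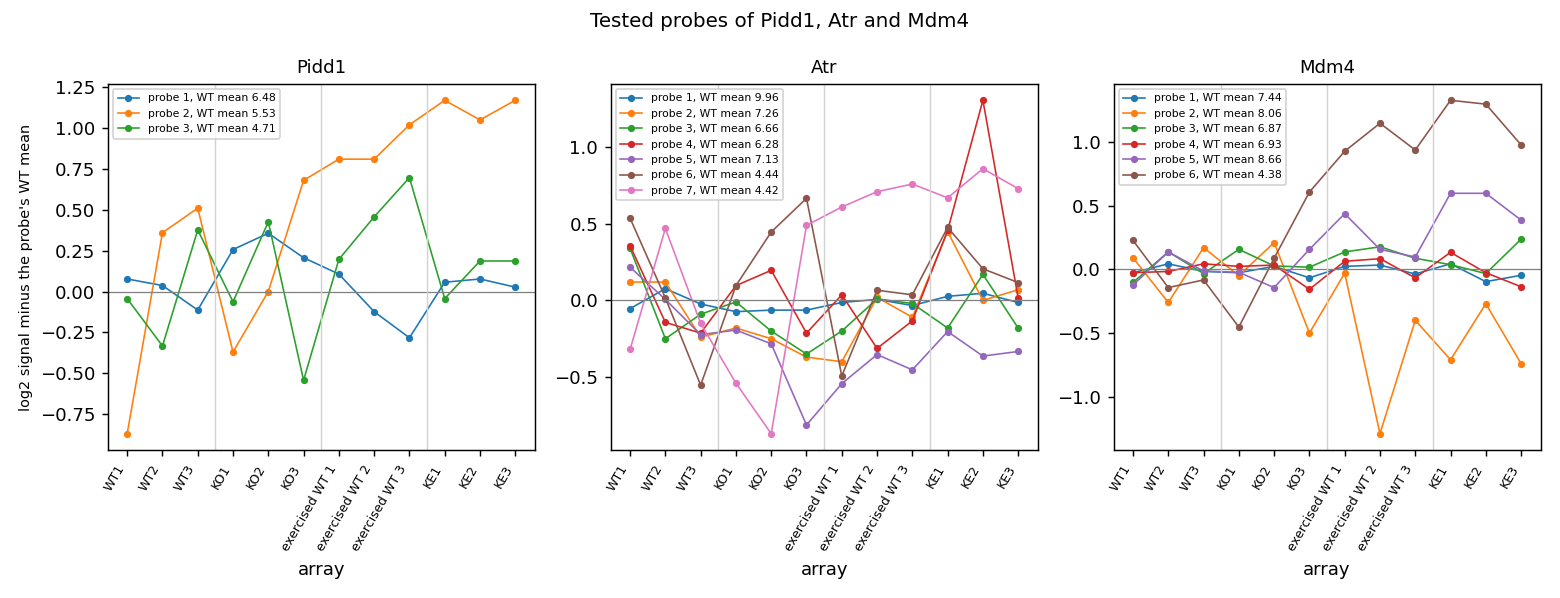
Log2 signal of each tested probe of Pidd1, Atr and Mdm4 relative to its own WT mean (vertical axis) on the arrays of WT, KO, exercised WT and KE (horizontal axis), 1 line per probe. KO replicate 3, on slide 2, lay nearer the exercised arrays than KO replicates 1 and 2 for the Pidd1 and Mdm4 probes that were highest in KE, and Pidd1 held probes at 1.03 and at -0.22 in KE against KO.

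The spread within groups differed widely between members. It was largest for Trp73 (within-group SD 0.408 log2), Cdkn1a (0.344), Chek1 (0.302), Pmaip1 (0.297), Apaf1 (0.237), Gadd45g (0.222) and Ddb2 (0.214), which are mostly the members that appear at the extremes above. Members not yet described were Ppm1d, Rrm2b, Ccnd1, Ccnd3, Cdk6, Ccne1, Casp8, Bax, Cycs, Casp9, Aifm2, Ei24, Sesn2, Sesn3 and Tsc2. They include the apoptosis genes Bax, Cycs, Casp8 and Casp9, the G1 cyclins Ccnd1, Ccnd3 and Ccne1, and the sestrins Sesn2 and Sesn3, which respond to nutrient stress, and none of them had an unadjusted p under 0.05 in any comparison without a block. Their log2 differences ran from -0.19 (Casp8 in KE against WT) to 0.13 (Bax in KE against exercised WT).

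A separate list of 43 other genes of the p53 pathway held 40 tested genes, of which 0 passed the criterion or an adjusted p under 0.05 in limma in any comparison. In KE against KO, 0 were higher and 9 lower at an unadjusted p under 0.05, with 6.95% and 13.5% of all genes as background. The counts higher and lower were 0 and 0 in KO against WT, beside 2.68% and 2.79% of all genes. They were 3 and 5 in exercised WT against WT, beside 10.6% and 14%, and 0 and 3 in KE against exercised WT, beside 2.11% and 5.03%. In KE against WT they were 4 and 7, beside 10.9% and 17.9%, and in the interaction 0 and 2, beside 3.21% and 4.85%. Tnfrsf23, a decoy receptor for a death ligand, was among the 2 highest in KO against WT (0.26), KE against KO (0.32), exercised WT against WT (0.41) and KE against WT (0.58). The lowest were Fdxr (-0.16) and Plk2 (-0.15) in KO against WT, Serpinb5 (-0.40) and Ercc5 (-0.35) in KE against KO, Cd82 (-0.42) and Plk2 (-0.37) in exercised WT against WT, and Polk (-0.45) and Ercc5 (-0.40) in KE against WT. In KE against exercised WT, Cd82 (0.36) and Tnfrsf23 (0.17) were highest and Polk (-0.39) and Serpinb5 (-0.37) lowest. In the interaction, Cd82 (0.33) and Fdxr (0.24) were highest and Serpinb5 (-0.48) was lowest. Once slide entered the fit, Tnfrsf23 was at 0.08, -0.04, -0.13 and 0.03 in the 4 comparisons named first, so its direction turned in KE against KO and in exercised WT against WT. Plk2 became -0.01 in KO against WT and 0.05 in exercised WT against WT, and Fdxr -0.03 in KO against WT and 0.11 in the interaction. The block left Serpinb5 at -0.32 and Ercc5 at -0.26 in KE against KO, Cd82 at -0.41 in exercised WT against WT, and Polk at -0.37 and Ercc5 at -0.27 in KE against WT. None of these genes passed the criterion. Of the 12 proliferation markers 10 were tested, and the others, Aurkb and Bub1, were above background on 0 arrays.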

How the data were processed

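Total RNA of 12 mouse hypothalami was labelled with Cy3 and hybridised to 1-colour Agilent arrays. The authors deposited scanner output with a processed intensity per spot (Agilent Feature Extraction 10.7.1.1, per the submitters' processing notes) and a whole table of quantile-normalized log2 values, the latter used as an alternative. Its 12 flag columns were not used. The deposited comparison tables hold fold changes and p-values of an unpaired test for probes past the screening criterion with their normalized values, and were not used. Per array, 61.62% to 67.91% of spots lay well above background, and the number of arrays limits precision.

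The processed intensity was taken to log2, outlier spots were left out, spots were averaged per probe and arrays were quantile-normalized. A probe was tested if all 3 arrays of 1 group or more had it well above background (35229 probes), and tested probes were averaged per gene. Group means were compared with limma 3.58.1 in R 4.3.3 in 6 comparisons, with Benjamini-Hochberg adjustment over all 18266 genes, and figures were drawn with matplotlib 3.10.9. The labels give each array its own replicate number within its group, which was taken as 1 mouse. The p-values of the main fit rest on a spread within groups that all groups share. KO replicate 3 therefore enters the p-values of comparisons without KO too. Tested on simulated data (KO against WT, 18266 genes), the fit recovered 96 of 100 genes changed by 1 log2 unit at an adjusted p under 0.05 and 57 by the criterion, and 99 and 100 of 100 genes changed by 2. Among the unchanged genes 14 were called at the adjusted p and 24 by the criterion. The simulated arrays had independent normal noise for each gene and no slide difference. These counts therefore check the fit and do not give the power of the real arrays. Alternatives were slide and replicate blocks, 1 slide only, each replicate left out, other background corrections, scalings, filters and probe rules, the methods' t-test and fits of 2 groups only.

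Named were Trp53, Cdkn1a, Chek1, Mdm4 and Pidd1, members past either threshold, the 3 highest and 3 lowest per comparison, members with opposed probes, and the 2 highest and 2 lowest other p53 genes, of which 1 is not reported here. Other members at an unadjusted p under 0.05 were named after their values were seen. Members and lists were chosen with earlier results of these data known. Probe positions are those of mm9 in the scanner files, and promoters are RefSeq GRCm38.p6, so the builds were not mixed. Cop1 was matched as Rfwd2.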

Additional observations from a re-analysis of the deposited data

Results flagged for a closer look

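The difference between trained and untrained mice differed between knockouts and wild-types for Chek1 and Cdkn1a, by the interaction term. The Chek1 interaction was -1.38 and the Cdkn1a interaction -1.15 on the log2 scale, and each passed the screening criterion and neither an adjusted p under 0.05 in limma. Chek1 rests on 1 probe that was well above background on 1 of 3 WT arrays and was tested through the groups where it was high, so its size is uncertain, and with normexp its interaction was -0.41. Cdkn1a rests on 1 probe, and its value on KO replicate 2 (10.24) was far above those on the other KO arrays (9.39 and 9.23).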

How the results depend on the processing

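Of the values past a threshold in the fit without a block, none changed direction. Of those that passed an adjusted p without KO replicate 3 alone, Gadd45a, Cdk4 and Siah1a in KE against WT were at -0.05, -0.02 and 0.02 under the slide block, and Thbs1 was at 0.15 with no detection filter. In KE against KO, the members past the criterion numbered 0 with the slide as a block, within slide 2, with normexp and with no detection filter, and 0 to 1 with 1 array left out (0 without KO replicate 2 or KE replicate 3). In KO against WT they numbered 0 with normexp, with no detection filter and with probes detected on all 12 arrays, where Chek1 was not tested, and 0 to 1 with 1 array left out (0 without WT replicate 2 or KO replicate 2). They numbered 1 in exercised WT against WT with the slide as a block and 1 in KE against WT with no detection filter (Cdk1, above background on 1 array). In the interaction they numbered 1 with normexp, 0 with no detection filter, 1 with probes detected on all 12 arrays, and 1 to 2 with 1 array left out (1 without KO replicate 2). Members at an adjusted p under 0.05 numbered 0 to 13 in KE against KO, 0 to 7 in KE against WT and 0 to 1 in exercised WT against WT with 1 array left out. The highest count came each time without KO replicate 3, beside 21.5%, 19.9% and 14.5% of all genes. Counts given here without a share of all genes cannot be set against a background. In KE against WT they numbered 1 by the methods' t-test (Cdk4) and 1 with only those 2 groups in the fit (Gadd45a). The methods' t-test passed 1, 1, 0, 0 and 0 members by the criterion in KO against WT, KE against KO, exercised WT against WT, KE against exercised WT and KE against WT, and 0 by adjusted p in the first 4 of these. At an unadjusted p under 0.05 it had 1, 3, 1, 2 and 4 members higher and 1, 9, 3, 1 and 6 lower. The share of all genes by that test is not reported here, so these counts cannot be set against a background. Where no value above shows it, the cause was not tested.

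With the replicate number as a block, members past the criterion numbered 1 in KO against WT, 1 in KE against KO and 2 in the interaction, as without it, and it changed no other call. Deviations of same-numbered arrays correlated between -0.175 and 0.233 over 18 pairs, and of differently numbered arrays between -0.235 and 0.218 over 36. The correlation was over 0.1 in 6 of the same-numbered pairs and in 3 of the others. Whether the numbers pair the samples was thus not settled. The methods' t-test and the fit of 2 groups were not run for the interaction, nor 1 slide alone for exercised WT against WT, KE against WT and the interaction. Signal close to background limits Chek1.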
